A study of Mus musculus with 16 samples.

Results

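Muscle and brown fat release proteins that act on other organs, called myokines when muscle makes them and batokines when brown fat does. This section describes 10 of their genes in mice that carry, on both copies of Ppargc1a, an allele labelled uORF-TAA, and in their wild-type littermates. The genes were chosen by symbol: Mstn, Fst, Fndc5, Il15, Igf1, Metrnl, Nrg4, Bmp8b, Fgf21 and Gdf15. Of these, 8 were listed in both deposited tables, which share 16882 genes. Bmp8b and Fgf21 were listed in the brown fat table only and were not analysed in quadriceps.

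All mice were C57BL/6 males of 10 weeks, housed at room temperature. RNA of quadriceps muscle and of brown adipose tissue was sequenced from 4 uORF-TAA homozygous and 4 wild-type libraries per tissue, 16 in all. Ppargc1a encodes PGC-1alpha, a coactivator of mitochondrial and thermogenic genes, and a uORF is a short open reading frame upstream of the one that encodes the protein. The labels do not name the fat depot and do not tell if each mouse gave both tissues.

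For each tissue there is a single table, in which the authors compared the genotypes. Per gene it holds a mean normalized count over the 8 libraries, a log2 fold change with its standard error (SE), and the p-values of a DESeq2 Wald test. Values of single libraries were not analysed here, so no spread over samples can be set beside a level. Changes are those of uORF-TAA relative to wild type, with the first genotype in each table's name assumed to be the numerator. The brown fat comparison names wild type first. The sign of each brown fat change was therefore turned, also where the value is credited to the deposited table. If the assumption fails for a tissue, every direction in it turns over.

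PGC-1alpha has been linked to several of these genes. In muscle it is known to raise Fndc5, whose product is cleaved to the hormone irisin, and a short PGC-1alpha isoform has been tied to higher Igf1 and Metrnl and to lower Mstn. Myostatin, the product of Mstn, restrains muscle growth through activin receptors, and follistatin, the product of Fst, binds and blocks it. Nrg4 and Bmp8b encode growth factors known from brown fat, of the epidermal growth factor and bone morphogenetic protein (BMP) families. FGF21 and GDF15 are hormones that rise under cell stress.

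FGF21 expression is under control of the transcription factor ATF4, which binds C/EBP-ATF response elements. The Fgf21 promoter is shown here because among the 8 members with a promoter entry it was the only one to hold the core of that element, and because genes of the ATF4 pathway are given with Fgf21 further on. The 250 bases ahead of the gene start lie at chr7:45615491-45615740 on the minus strand of GRCm38.p6 (RefSeq), a build other than the mm9 of the submitters' processing notes. They are written 5′ to 3′, with the element TTGCATCA in capitals, which begins 139 bases ahead of the start.
Fgf21 promoter: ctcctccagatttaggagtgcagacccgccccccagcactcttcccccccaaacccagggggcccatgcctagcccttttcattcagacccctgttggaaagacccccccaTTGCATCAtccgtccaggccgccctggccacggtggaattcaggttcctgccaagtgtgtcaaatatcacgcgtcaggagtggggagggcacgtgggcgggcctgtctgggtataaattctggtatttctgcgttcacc

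The table of RefSeq promoters held 9 windows of 8 of these genes, all but Fst and Il15. TTGCATCA, searched on both strands, was present in 0.791% of 32851 promoter windows of the same length. The TATA box, searched as TATAAA, was found in Fgf21 and Mstn, against 12.4% of all windows. The element of the oestrogen-related receptors, TNAAGGTCA, through which PGC-1alpha acts on many genes, and the cyclic AMP response element, TGACGTCA, were in none of the members' windows, against 1.14% and 1.55% of all. These matches describe letters in a window only.

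The tissues were first checked against their markers. Levels were divided by exon length and scaled to a total of 1000000 units per tissue, so that genes can be compared within a tissue. The tables were normalized separately, so levels of different tissues are set side by side without a test. All 10 brown adipocyte markers were higher in brown fat, by 6.31-fold to 8858-fold, the latter for Ucp1, which uncouples respiration to make heat. Of 10 skeletal muscle fibre markers, 9 were higher in quadriceps, and Myh7, the slow myosin, was 2.17-fold higher in brown fat. Muscle fibre transcripts were abundant in brown fat all the same, with a summed level of 8741 units for the 10 markers, against 191400 units in quadriceps. The summed mean normalized counts were 21041584 in quadriceps, over 17539 genes, and 12822363 in brown fat, over 18000 genes. Ppargc1a itself had a log2 change of 0.058 ± 0.13 (SE) in quadriceps and 0.0016 ± 0.11 in brown fat in the authors' deposited table.

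Among the secreted factors, Mstn led in quadriceps and Nrg4 in brown fat. In quadriceps the length-scaled level of Mstn was 262 units, higher than 97.5% of the genes. Fndc5 followed at 59.7 units, in the upper part of the range as well (percentile 88.6). Igf1, the insulin-like growth factor that drives muscle growth, stood at 7.08 units and Fst at 5.60, both a little above the median gene. Metrnl, which encodes meteorin-like, at 3.38 units, and Il15, a cytokine of lymphocyte survival, at 2.86 were a little below it. Nrg4 was low in muscle, at 1.32 units. Gdf15 was at the limit of detection there, with a level of 0.0181 units and normalized counts that sum to 1.84 over the 8 libraries. Of the 8 listed members 4 lay above the median gene of quadriceps.

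In brown fat the order was another one. Nrg4 stood at 80.3 units, in the top part of the tissue (percentile 89.3), and Fst at 28.4. Metrnl at 11.4 and Fndc5 at 9.27 came next, then Igf1 at 7.87, Mstn at 5.01 and Il15 at 4.71 units. Without a spread over samples it cannot be said which neighbours in this order, or in that of quadriceps, differ. Fgf21 at 0.621, Bmp8b at 0.374 and Gdf15 at 0.106 units were the lowest, at mean normalized counts of 3.26, 6.05 and 1.08. Of the 10 members 5 lay above the median gene of brown fat.

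**Figure D1:**
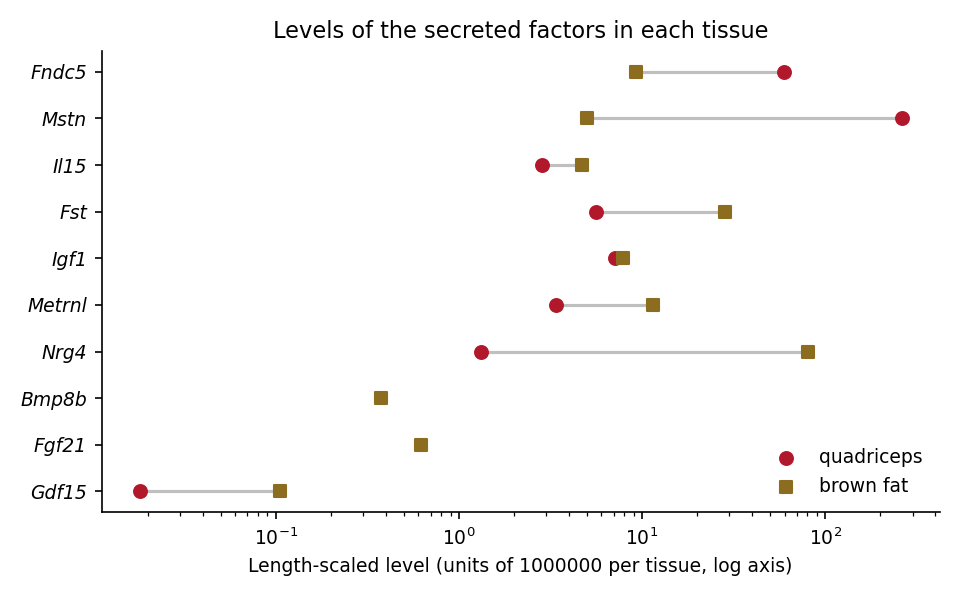
Length-scaled level of each secreted factor in quadriceps (circles) and brown fat (squares), in units of 1000000 per tissue on a log axis. Mstn and Fndc5 are higher in quadriceps, Igf1 has no direction that holds under each scaling, and Nrg4 runs from 1.32 units in quadriceps to 80.3 in brown fat.

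Set side by side, Nrg4 was 60.9-fold higher in brown fat, Fst 5.07-fold, Metrnl 3.39-fold and Il15 1.65-fold. Igf1 was 1.11-fold higher in brown fat, but 1.16-fold higher in quadriceps without the 10 most abundant genes of each tissue, so its direction depends on the scaling. The other 7 members listed in both tissues kept their direction without those genes, without division by length and with the longest transcript. Mstn was 52.2-fold and Fndc5 6.44-fold higher in quadriceps. The brown fat level of Fndc5 was 15.5% of that in quadriceps and that of Mstn 1.91%. For the muscle fibre markers other than Myh7 this share ran from 2.49% for Myh4, a fast myosin, to 19.7% for Myh2. Fndc5 thus fell inside the range of those markers and Mstn just under it. The part of muscle fibre RNA in the brown fat values of Fndc5 and Mstn was not tested. In whole tissue, fewer cells of a type and less RNA per cell cannot be told apart.

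The question put to the tables was whether these genes differed between uORF-TAA and wild-type mice. In quadriceps 0 of the 8 listed members had an adjusted p under 0.05 by the DESeq2 test of the table, where 0% of all 17521 tested genes passed. At an unadjusted p under 0.05, 0 members stood out as well, against 2.00% of all genes. In brown fat 0 of 10 passed, against 0.0863% of genes with an adjusted p, and 0 had an unadjusted p under 0.05, against 2.07% of all genes. An adjusted p is given in brown fat for 4 of the 10 members, Nrg4, Fndc5, Fst and Igf1, and none for the 6 others, whose mean counts were lower. Every adjusted p that the tables give for a member was 1.00 in the DESeq2 test.

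The size of difference that these tables could miss depends on how the fold changes were made. The deposited SE does not fall steadily with the count but rises to a ceiling, 0.135 in quadriceps and 0.127 in brown fat, and drops again in genes of low count. This is the form of an estimate pulled towards 0 by a normal prior, under which a poorly measured gene has both a small fold change and a small SE. The Wald statistic is not altered by such a prior, so unshrunken values were back-calculated from it and the SE. Each deposited SE corresponds to a smaller and a larger unshrunken SE. The smaller one was dropped where it lies under the counting error of the gene. The back-calculated values rest on that inferred form and leave every p-value as deposited.

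**Figure D2:**
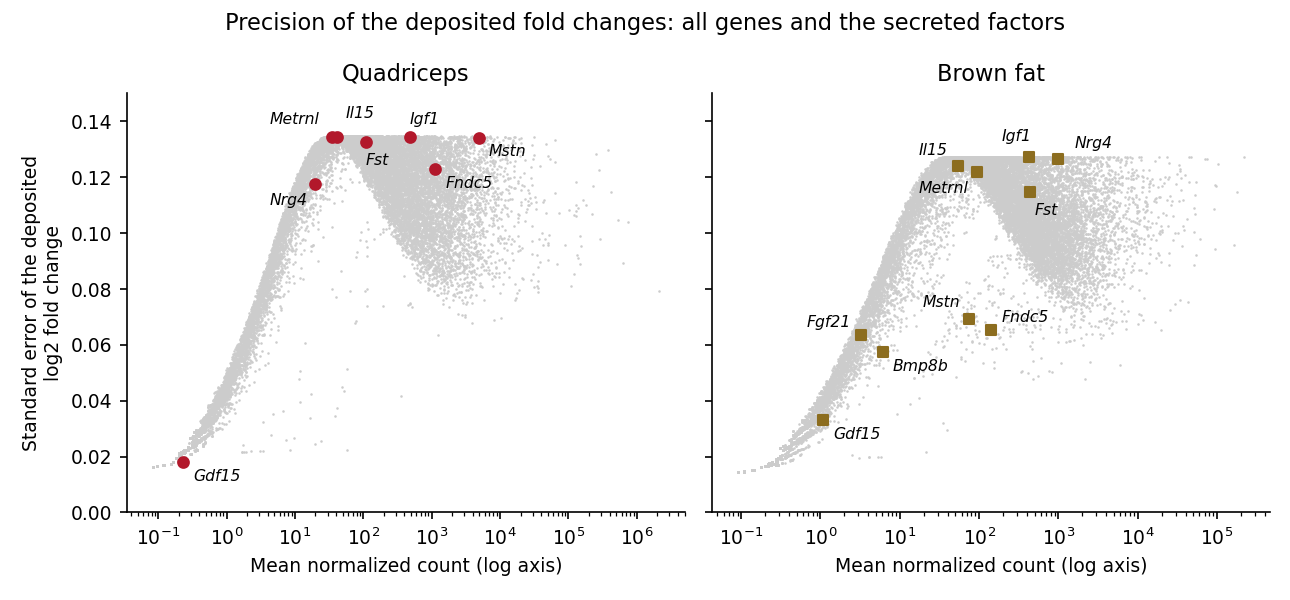
Standard error of the deposited log2 fold change against the mean normalized count (log axis), with all genes in grey and the secreted factors marked. In quadriceps 7 of 8 members lie near the ceiling of 0.135 and in brown fat 5 of 10 lie near that of 0.127. Gdf15 lies on the low-count slope in both tissues. In brown fat Fndc5, Mstn and Bmp8b lie under nearly all other genes of similar count.

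Myostatin and its inhibitor come first. In quadriceps Mstn had a mean normalized count of 4862 and a log2 change of -0.18 ± 0.13 (SE), with an unadjusted p of 0.172, in the authors' deposited table. It was the one member below 0 in that tissue. The back-calculated log2 change was between -0.34 ± 0.25 and -0.40 ± 0.29 (SE), with a 95% interval of -0.98 to 0.17 for the larger error. Mstn would have needed a change of 2.23-fold to 2.59-fold to pass as the only changed gene of quadriceps, which takes a Wald statistic of 4.68. Fst had 0.079 ± 0.13 (SE) in quadriceps, at a mean normalized count of 109, in the authors' deposited table. In brown fat Fst had a mean normalized count of 443 and a log2 change of -0.15 ± 0.11 (SE), with an unadjusted p of 0.178, the smallest among the members of that tissue, in the authors' deposited table. Its back-calculated value was -0.22 ± 0.16 or -0.55 ± 0.41 (SE). Neither gene passed the test in either tissue.

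Fndc5, the irisin precursor, had a mean normalized count of 1134 in quadriceps. Its log2 change was 0.047 ± 0.12 (SE) with an unadjusted p of 0.703 in the authors' deposited table. Back-calculated values were 0.067 ± 0.17 or 0.16 ± 0.42 (SE), and the 95% interval for the larger error ran from -0.66 to 0.97. That interval allows changes of either sign. In brown fat its deposited SE of 0.065 was low for the count of 141. Of the 1077 genes within 1.25-fold of that count, 0.743% had a smaller SE, and the median SE of all 1077 was 0.121. For Fndc5 only the larger unshrunken SE was kept, as the smaller one lay just under the counting error of 0.073. The larger one gave a log2 change of 0.31 ± 0.92 (SE), with a 95% interval of -1.5 to 2.12. If it applies, the brown fat libraries leave room for a several-fold change of Fndc5 in either direction.

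Mstn stood in the same place in brown fat. Its deposited SE of 0.069 was lower than that of all but 1.5% of the 802 genes of similar count. The back-calculated log2 change was -0.65 ± 0.86 (SE), against -0.052 for the deposited value with its sign turned. The 10 muscle fibre markers had deposited SEs from 0.048 to 0.093 in brown fat, at mean counts of 2148 and more. Among genes of similar count, which numbered from 18 to 568, between 0% and 22% had a smaller SE than the marker. For these 10 both unshrunken errors were possible, so whether the larger one applies to them cannot be said. The 10 brown adipocyte markers had SEs from 0.11 to 0.13 there. How muscle fibre RNA varied among the brown fat libraries was not tested, as no values of single libraries were used.

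Il15 had the smallest p of the members. In quadriceps its mean normalized count was 41.3 and its log2 fold change 0.26 ± 0.13 (SE), with an unadjusted p of 0.0556, in the authors' deposited table. By p it ranked 382 among 17521 genes. The back-calculated change was 0.50 ± 0.26 to 0.54 ± 0.28 (SE), and the 95% interval for the larger error ran from -0.013 to 1.08. That interval includes 0, and a change of 2.32-fold to 2.48-fold would have been needed to pass alone. In brown fat Il15 had -0.047 ± 0.12 (SE) at a mean normalized count of 54.5 in the authors' deposited table.

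Metrnl, which has been tied to exercise and cold, leaned the same way in muscle. Its log2 change in quadriceps was 0.20 ± 0.13 (SE) at a mean normalized count of 34.9, with an unadjusted p of 0.129, in the authors' deposited table. Back-calculated, this was 0.40 ± 0.26 to 0.42 ± 0.28 (SE). In brown fat Metrnl had -0.088 ± 0.12 (SE) at a mean count of 94.8 in the authors' deposited table. Igf1 had 0.060 ± 0.13 (SE) in quadriceps and 0.16 ± 0.13 (SE) in brown fat, at mean normalized counts of 482 and 429, in the authors' deposited table. Its back-calculated value in brown fat was 0.30 ± 0.24 to 0.34 ± 0.27 (SE), with an unadjusted p of 0.207. Igf1 had a larger deposited SE than 97.1% of the 1205 genes of similar count in quadriceps and than 98.5% of 1558 in brown fat.

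Nrg4, the most abundant of these factors in brown fat, had a log2 change of 0.091 ± 0.13 (SE) there at a mean normalized count of 977, with an unadjusted p of 0.473, in the authors' deposited table. The back-calculated value was 0.17 ± 0.23 to 0.20 ± 0.28 (SE), and the 95% interval for the larger error ran from -0.35 to 0.76. In quadriceps, at a mean count of 20.0, Nrg4 had 0.14 ± 0.12 (SE) in the authors' deposited table and 0.56 ± 0.46 (SE) back-calculated. Exons of Nrg4 overlap those of Fbxo22 on the opposite strand, as those of Bmp8b and Fst do with the predicted genes Gm17244 and Gm47040. The libraries were stranded per the labels, but whether the counting used the strand is not given in the sources used here.

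The rarest factors had wide intervals. In brown fat Bmp8b had a log2 change of 0.048 ± 0.057 (SE) and Fgf21 -0.011 ± 0.063 (SE) in the authors' deposited table, and back-calculation gave 0.89 ± 1.07 and -0.17 ± 0.95 (SE). The 95% interval of Fgf21 reached from -2.04 to 1.70. The deposited SE of Bmp8b was low for its count as well, with 2.02% of 593 genes of similar count below it. Gdf15 had 0.041 ± 0.033 (SE) in brown fat and 0.013 ± 0.018 (SE) in quadriceps in the authors' deposited table, at summed normalized counts of 8.63 and 1.84. No fold change of Gdf15 can be read from such counts. Bmp8b also has a close paralog, Bmp8a. Of its 3806 distinct stretches of 75 bases, the read length, 159 (4.18%) occur in Bmp8a transcripts. The 9 other members share 0 with transcripts of any other gene of the annotation read in the same direction. Matches to the opposite strand were not searched. Stretches shared with the overlapping exons of Fbxo22, Gm17244 or Gm47040 would thus not be counted.

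**Figure D3:**
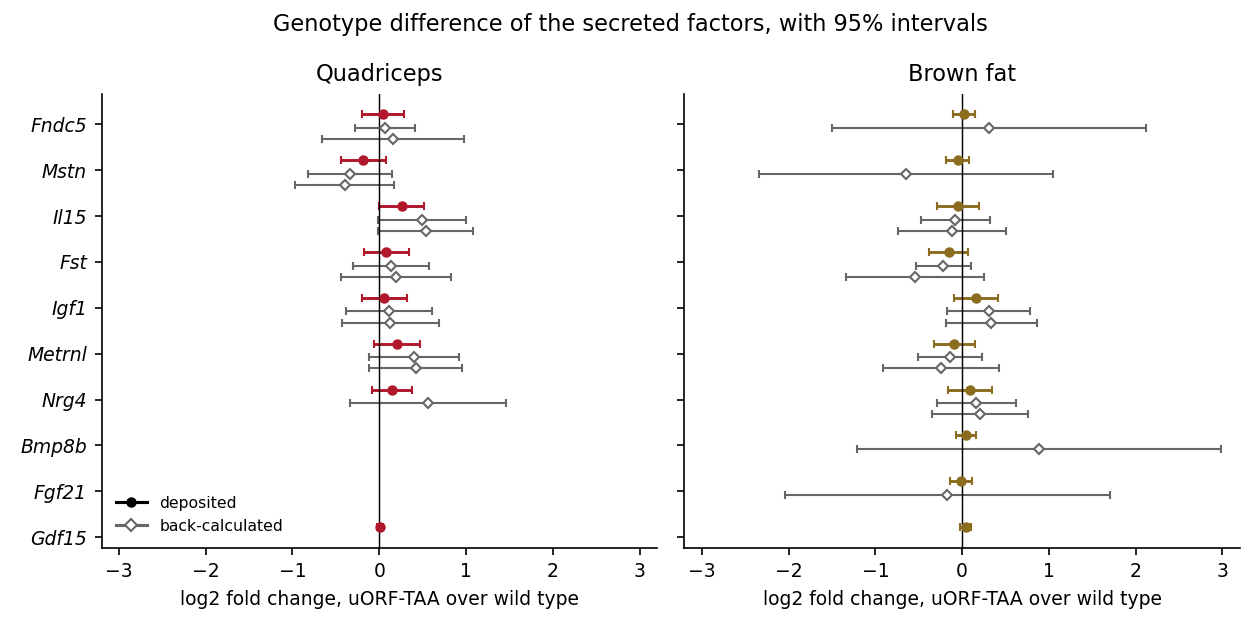
Log2 fold change of uORF-TAA over wild type for each secreted factor, with 95% intervals, in quadriceps (left) and brown fat (right). Filled circles are deposited values, with the sign turned in brown fat. Open diamonds are back-calculated values, 2 per gene where both errors were possible and none for Gdf15. Every interval spans 0. In brown fat the back-calculated intervals of Fndc5, Mstn, Bmp8b and Fgf21 reach past 1 in size on both sides.

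The members were also read as a group, by their counts. In quadriceps 7 of 8 were above 0, with a median log2 fold change of 0.069, against 51.7% of all genes and a median of 0.0024. In brown fat 5 of 10 were above 0 with a median of 0.0053, against 51.2% of all genes and 0.0015. These counts include the sign of Gdf15, of which no fold change can be read. In brown fat they also include the signs of the rare Bmp8b and Fgf21. The difference between the tissues, quadriceps less brown fat, was 0.30 ± 0.18 (SE) for Il15, with an unadjusted p of 0.0965, and 0.29 ± 0.18 (SE) for Metrnl, with 0.107. With the brown fat sign as deposited these unadjusted p-values became 0.250 and 0.523, and the smallest of the 8 was 0.120, that of Mstn. When the DESeq2 changes of the tissues were subtracted and tested against a normal distribution, 0 of 8 members passed an adjusted p of 0.05, against 0% of 16844 genes, and 0 had an unadjusted p under 0.05, against 1.16%. This test takes the tissues as independent. Fold changes and SEs entered it without back-calculation, so both are small in poorly measured genes. For Mstn in brown fat the SE that entered was 0.069, against 0.86 back-calculated, and for Fndc5 0.065 against 0.92. Gdf15 is among the 8 as well. For these genes the test cannot tell if the change differs between tissues, and no conclusion is drawn from it.

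Receptors and partners of the secreted factors were read from 9 lists of 132 genes. In quadriceps 128 were listed, 0 passed the adjusted threshold, and 4 (3.12%) reached an unadjusted p below 0.05, of which 2 were higher and 2 lower. In brown fat 127 were listed, 0 passed, and 3 (2.36%) had such a p, all higher. These shares lie near the 2.00% and 2.07% of all genes.

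The myostatin and activin list held 1 of the 4 in quadriceps. Acvr2b, a receptor that binds myostatin, had a log2 change of 0.43 ± 0.13 (SE) and an unadjusted p of 0.00137 in the authors' deposited table. Its mean normalized count was 57.2. It did not pass over all genes, as its DESeq2 adjusted p was 1.00. Its back-calculated value was 0.80 ± 0.25 to 0.93 ± 0.29 (SE). In brown fat Acvr2b had 0.017 ± 0.13 (SE) in the authors' deposited table. The related receptor gene Acvr2a was more abundant in quadriceps, at a length-scaled level of 31.3 units against 2.33 for Acvr2b, and had 0.081 ± 0.13 (SE) in the authors' deposited table. Over the list, 11 of 20 genes were above 0 in each tissue. In brown fat Smad3, a transducer of activin signals, had the smallest p of the list, 0.102, with 0.19 ± 0.11 (SE) in the authors' deposited table.

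In the IGF1 list, Igfbp3, a carrier protein of IGF1, had a log2 change of -0.39 ± 0.12 (SE) in quadriceps, with an unadjusted p of 0.00131, in the authors' deposited table. It was not called, at a DESeq2 adjusted p of 1.00. In brown fat it had -0.23 ± 0.13 (SE) in the authors' deposited table. Irs1, which relays signals of the insulin and IGF1 receptors, had 0.34 ± 0.10 (SE) in brown fat, and the authors' deposited table gives it a DESeq2 adjusted p of 0.291. Ghr, the growth hormone receptor upstream of Igf1, had 0.29 ± 0.12 (SE) there, with an unadjusted p of 0.0128, in the authors' deposited table. Igf1r, the receptor itself, had -0.079 ± 0.11 (SE) in quadriceps and -0.17 ± 0.11 (SE) in brown fat in the authors' deposited table. Over the list 7 of 18 genes were above 0 in quadriceps and 9 of 18 in brown fat.

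The BMP list had Smad6, an inhibitor of BMP signals, at 0.33 ± 0.13 (SE) in brown fat, with an unadjusted p of 0.0103, in the authors' deposited table. In quadriceps 0 genes of the list had such a p. Bmpr1a, a BMP receptor, had the smallest p of that list in quadriceps, 0.115, with 0.20 ± 0.13 (SE), and had 0.18 ± 0.10 (SE) in brown fat in the authors' deposited table. Above 0 were 11 of 19 genes in quadriceps and 9 of 18 in brown fat.

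Receptors of the brown fat factors were uneven in level. Erbb4, the receptor of NRG4, was nearly undetected, at 0.0426 units in quadriceps and 0.0665 in brown fat, while Erbb3 stood at 2.66 and 1.32. In brown fat 0 of 8 listed neuregulin genes were above 0, against 51.2% of all genes, with a median of -0.057 and with 0 at an unadjusted p under 0.05. Egfr had the smallest p of the list in that tissue, 0.242, and -0.15 ± 0.13 (SE) in the authors' deposited table. In quadriceps 4 of 8 were above 0. Klb, the co-receptor that FGF21 needs, stood at 40.2 units in brown fat and 1.52 in quadriceps, and Fgfr1 at 74.3 and 90.9. Klb had a log2 change of 0.18 ± 0.12 (SE) in brown fat, and Fgfr2, with the smallest p of its list there (0.0754), -0.18 ± 0.10 (SE), in the authors' deposited table. Fap, the protease that inactivates FGF21, had the smallest p of that list in quadriceps, 0.139.

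For IL-15, Il15ra, the receptor chain that presents the cytokine, stood at 21.7 units in quadriceps and 75.4 in brown fat. Its log2 change was -0.16 ± 0.11 (SE) in quadriceps and 0.15 ± 0.11 (SE) in brown fat in the authors' deposited table, the smallest p of the list in each tissue, 0.143 and 0.196. Of the genes tied to FNDC5 and METRNL, Itgav and Itgb5, integrin chains reported to bind irisin, had the smallest p in quadriceps (0.264) and in brown fat (0.306). Kit, a reported receptor of meteorin-like, had 0.12 ± 0.13 (SE) and 0.098 ± 0.12 (SE) in the authors' deposited table.

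In the list of other secreted factors, Vegfa, which drives vessel growth, had a log2 change of 0.28 ± 0.12 (SE) in quadriceps, with an unadjusted p of 0.0146, in the authors' deposited table. Erfe, a hormone of iron balance listed there under an older symbol, had -0.26 ± 0.11 (SE) with 0.0172, at a mean count of 9.34. Neither was called. In brown fat 0 of 29 had such a p, and S100b, a glial protein also made by brown fat cells, had the smallest, 0.145. The ATF4 pathway around Fgf21 and Gdf15 had 4 of 11 genes above 0 in each tissue and 0 at an unadjusted p under 0.05. Atf4 itself had -0.12 ± 0.11 (SE) in quadriceps and 0.15 ± 0.12 (SE) in brown fat in the authors' deposited table. The smallest unadjusted p was that of Eif2ak4, a kinase that senses amino acid shortage, in quadriceps, at 0.116. In brown fat it was that of Asns, an ATF4 target, at 0.115.

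**Figure D4:**
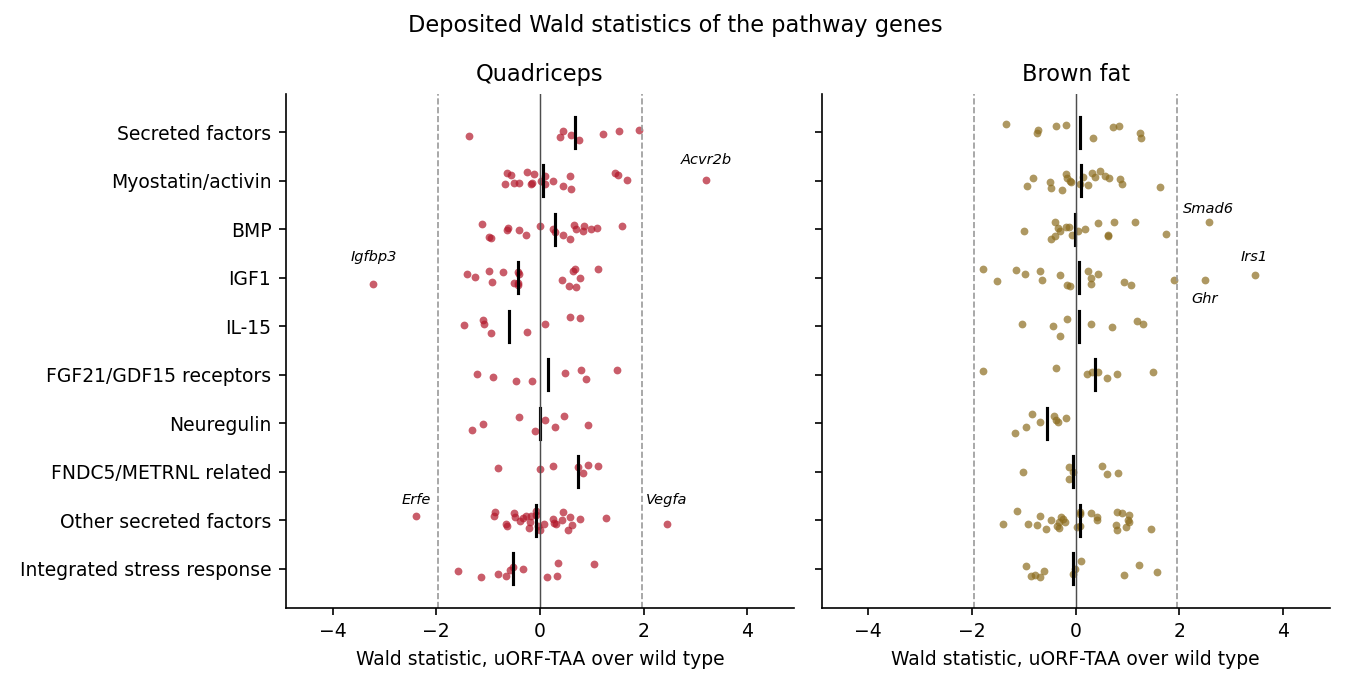
Deposited Wald statistics, uORF-TAA over wild type, for the secreted factors and the genes of 9 related lists in quadriceps (left) and brown fat (right). The sign of the brown fat statistics was turned. Points are genes, black bars are list medians, dashed lines mark an unadjusted p of 0.05, and the 4 genes past them in quadriceps and 3 in brown fat are named.

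Of the markers of other cells, some lists leaned with genotype beside these values and others did not. Of all genes, 51.7% were above 0 in quadriceps and 51.2% in brown fat. An unadjusted DESeq2 p under 0.05 was found for 2.00% and 2.07% of them. In quadriceps 4 of 5 smooth muscle and pericyte markers were below 0, with a median log2 fold change of -0.29 and 3 at an unadjusted p under 0.05, and 5 of 5 peripheral nerve glia markers were below 0, with a median of -0.20. Myh11, the smooth muscle myosin, had the smallest p among them, with -0.35 ± 0.10 (SE) in the authors' deposited table. In brown fat 4 of 5 glia markers were below 0, with a median of -0.14. The smooth muscle and pericyte markers went the other way there, with 3 of 5 above 0 and a median of 0.095. Immune cell, fibroblast and endothelial markers were above 0 in 3 of 7, 5 of 6 and 3 of 5 cases in quadriceps. In brown fat these counts were 4 of 7, 4 of 6 and 4 of 5. Skeletal muscle fibre markers were above 0 in 5 of 10 cases in quadriceps and in 2 of 10 in brown fat. Their medians, without back-calculation, were 0.0040 and -0.0070. Brown adipocyte markers were above 0 in 9 of 10 cases in each tissue, with medians of 0.064 in quadriceps and 0.084 in brown fat. In quadriceps Cox8b of this list stood at 1101 units (percentile 99.5), while Ucp1 and Elovl3 had mean counts of 6.70 and 5.62. The list is thus no measure of brown adipocytes in muscle. No marker of these lists passed an adjusted p of 0.05 in the DESeq2 test. Lum, a fibroblast marker above 0 in quadriceps, had no p-value there and could not pass. In brown fat an adjusted p was given for 2 of 7 immune cell markers and 4 of 5 glia markers only. The part of these markers in the values of Acvr2b, Igfbp3 or the secreted factors was not tested.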

How the data were processed

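RNA of 2 tissues was sequenced in 16 libraries, 4 per genotype and tissue. The submitters' processing notes name STAR 2.5.1b, mm9 and DESeq2 1.10.1 without their roles; the annotation, counter and strand setting were not given in the sources used here. The mean normalized count (used as a signal), the log2 fold change with its standard error, the Wald statistic (a score), the p-value and the adjusted p-value were deposited by the authors, per the file headers. The brown fat table names wild type first, so its sign was turned.

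Levels are mean counts over GENCODE M21 union exon length (found for 98.9% of genes or more), scaled to 1000000 units per tissue. Unshrunken errors were solved from SE = sqrt(I)/(I + 1/v), where I is the information and the ceiling of SE is sqrt(v) divided by 2. Counting error used the lowest mean count of the table as a single read. Differences between tissues were z tests with Benjamini-Hochberg adjustment. Computations used Python 3.11.15 and scipy 1.17.1, tested on simulated data. Those data were made with the same form of prior that the back-calculation inverts. The simulation therefore cannot tell if that form holds here, nor if dropping the smaller error by counting error is right. Synonyms matched Erfe and Adgre1 to older symbols.

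Members and lists were chosen with earlier results of these data known. Named are the members, Ppargc1a, up to 3 genes per list and tissue with an unadjusted p under 0.05 (otherwise the one of smallest p), and receptors of the members.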

Additional observations from a re-analysis of the deposited data

How the results depend on the processing

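No paired analysis was possible because the tables hold one comparison per tissue and no values of single libraries, which also kept each replicate from being left out in turn. In each tissue 0 members passed with adjustment over every gene with a p-value, over genes whose mean count reached 10 or 50, at a threshold of 0.1, and with the Wald statistic centred on genes of similar mean count. The same held for the difference between tissues with the brown fat sign as deposited and with the difference of Wald statistics. It also held among genes whose mean count reached 50 in each table, where the members were Fndc5, Mstn, Igf1 and Fst only. In quadriceps the cut at 50 left out Il15, Metrnl, Nrg4 and Gdf15, and that at 10 left out Gdf15. In brown fat both cuts left out Fgf21, Bmp8b and Gdf15. Members left out could not pass. Over all genes the 0 calls of quadriceps became 2 at a threshold of 0.1, and the 0 genes differing between tissues became 6 with the brown fat sign as deposited. Back-calculation and the longest transcript as length were chosen after seeing the data. Members above the median gene of brown fat were 5, and 4 without division by length. The level of Igf1, 1.11-fold higher in brown fat, was 1.16-fold higher in quadriceps without the 10 most abundant genes. Depth limits Gdf15, with summed normalized counts of 1.84 in quadriceps and 8.63 in brown fat.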
